A study of Mus musculus with 15 samples.

Results

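Ccr2 is the receptor through which inflammatory monocytes are drawn out of the marrow and into tissue, and Ccl2, Ccl7, Ccl8 and Ccl12 are neighboring genes for monocyte chemoattractant proteins. These 5 genes were chosen by name, as the receptor, its ligands and Ccl8, from the 32543 named genes of the deposited table of counts. All 5 were among the 15494 genes that passed the filter on low counts. RNA was sequenced from 15 subcutaneous tumors grown from WEHI-164, a mouse fibrosarcoma cell line, in female wild type BALB/c mice. Tumors were injected with poly(I:C), a synthetic double-stranded RNA that activates the receptor TLR3, and were harvested on day 1, 3, 5 or 7, with 3 tumors on each day. The schedule in the labels was 1 µg in 25 µL each day, with 6 doses planned. Tumors of days 1 and 3 were harvested before 6 daily doses could be given. Harvest day and the number of doses received thus cannot be told apart. The study's methods also give 1 µg, but a legend of the study gives a larger amount, so the dose is uncertain. The 3 tumors of day 0 were untreated and no vehicle-injected tumors were analysed here, so the effects of poly(I:C), of injection and of time cannot be told apart. All tumors came from 1 cell line, and the labels give no age for the mice.

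Chemokines of this family are small secreted proteins that attract cells bearing the matching receptor. CCL2 and CCL7 are the main agonists of CCR2 and are made by macrophages, stromal cells and many tumor cells, CCL12 is a further CCR2 agonist found in mice, and mouse CCL8 is known mainly as an agonist of CCR8. CCR2 marks monocytes expressing Ly6C and is lost as they mature into macrophages, while some T and NK cells also carry it. In tumors, monocytes that enter through CCR2 give rise to many of the macrophages.

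The libraries held 23.7 to 31.9 mega-counts, so that 3 counts, the most that a gene with no count could have had, equaled 0.0972 to 0.125 CPM (counts scaled to 1 mega-count of library total, with TMM factors). Every value of the 5 genes lay far above that limit, and the limit covers counting error only. Day 3 replicate 1 stood apart from the other tumors, with a mean correlation of 0.884 with them, while each of those had at least 0.956. In that tumor the summed level of 7 skeletal muscle markers was 3079 CPM, while the day 0 tumors had at most 173 CPM, and the summed level of 13 macrophage markers was 13220 CPM. The main values that involve day 3 are given also without this tumor.

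The 4 chemokine genes lie on the plus strand of chromosome 11 in a cluster of 81229 bases that holds 5 protein-coding genes, with Ccl11 as the other member (GENCODE M21, GRCm38). Ccl2 (ENSMUSG00000035385.5) spans chr11:82035571-82037453, Ccl7 (ENSMUSG00000035373.2) chr11:82045712-82047525, Ccl12 (ENSMUSG00000035352.3) chr11:82101845-82103400 and Ccl8 (ENSMUSG00000009185.2) chr11:82115185-82116799. Ccr2 (ENSMUSG00000049103.14) lies on the plus strand at chr9:124101950-124113557 and has 4 protein-coding transcripts. The span of Ccl2 overlaps that of Gm17268, another annotated gene. None of the words of 31 bases in the annotated transcripts of the 4 chemokines occurred in a transcript of another gene, so that reads of these relatives could be told apart in that annotation. In Ccr2, 235 of 6745 such words, or 3.48%, were shared with transcripts of other genes, and no word was shared among the 5 genes.

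Of the 4 chemokines, Ccl8 and Ccl12 had an entry in the RefSeq promoter table. They are neighbors, 11784 bases apart, whose log2 levels over the tumors had r = -0.05, and the 250 bases before each start site are shown to set the pair side by side, from the plus strand of GRCm38.p6. They span chr11:82114935-82115184 for Ccl8 and chr11:82101595-82101844 for Ccl12, and the capitals mark TATAAA, the TATA box.
Ccl8: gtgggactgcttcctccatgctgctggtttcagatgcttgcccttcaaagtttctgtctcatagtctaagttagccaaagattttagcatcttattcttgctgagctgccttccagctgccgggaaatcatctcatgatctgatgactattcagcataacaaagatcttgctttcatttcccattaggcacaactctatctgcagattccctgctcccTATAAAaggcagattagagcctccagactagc
Ccl12: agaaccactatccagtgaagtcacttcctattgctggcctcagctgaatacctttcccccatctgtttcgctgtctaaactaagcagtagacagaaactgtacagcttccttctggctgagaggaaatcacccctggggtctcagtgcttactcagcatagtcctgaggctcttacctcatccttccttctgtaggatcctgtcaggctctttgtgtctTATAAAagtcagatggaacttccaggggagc
Both windows hold 1 TATAAA, at -32 to -27 from the start of Ccl8 and at -31 to -26 from that of Ccl12, a word found on either strand in 7.59% of 32851 mouse promoter windows of that length. Neither window holds a match to the consensus of NF-kB, to that of AP-1 (TGANTCA), to the interferon-stimulated response element or to the gamma interferon activation site (TTCNNNGAA), on either strand. The last 4 motifs occur in 9.55%, 6.75%, 2.98% and 7.02% of the windows. Such matches describe the letters of these windows alone. Ccl2 and Ccl7 had no entry in the table, and the window given for Ccr2 overlaps the annotated gene itself and is not shown.

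Per kilobase of the longest protein-coding transcript, Ccl8 had the highest mean level over the 15 tumors, at 373 ± 340 CPM per kilobase, followed by Ccl2 at 258 ± 78.1, Ccl7 at 138 ± 56.3 and Ccl12 at 52.9 ± 13.7 (SD, n = 15). The SD of Ccl8 was nearly as large as its mean. Ccr2 had 22.6 ± 9.74 CPM per kilobase on its longest transcript and a mean of 57.2 CPM per kilobase on its shortest, so the order of Ccr2 and Ccl12 depends on which transcript is taken. Within the genes, the highest tumor exceeded the lowest 25.9-fold in CPM for Ccl8, 6.85-fold for Ccr2, 4.27-fold for Ccl2, 3.77-fold for Ccl7 and 2.66-fold for Ccl12. The variance of log2 CPM of Ccl8 was larger than that of 96.3% of the genes tested, and for Ccl2 and Ccl7 the share was 72.2%.

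**Figure D1:**
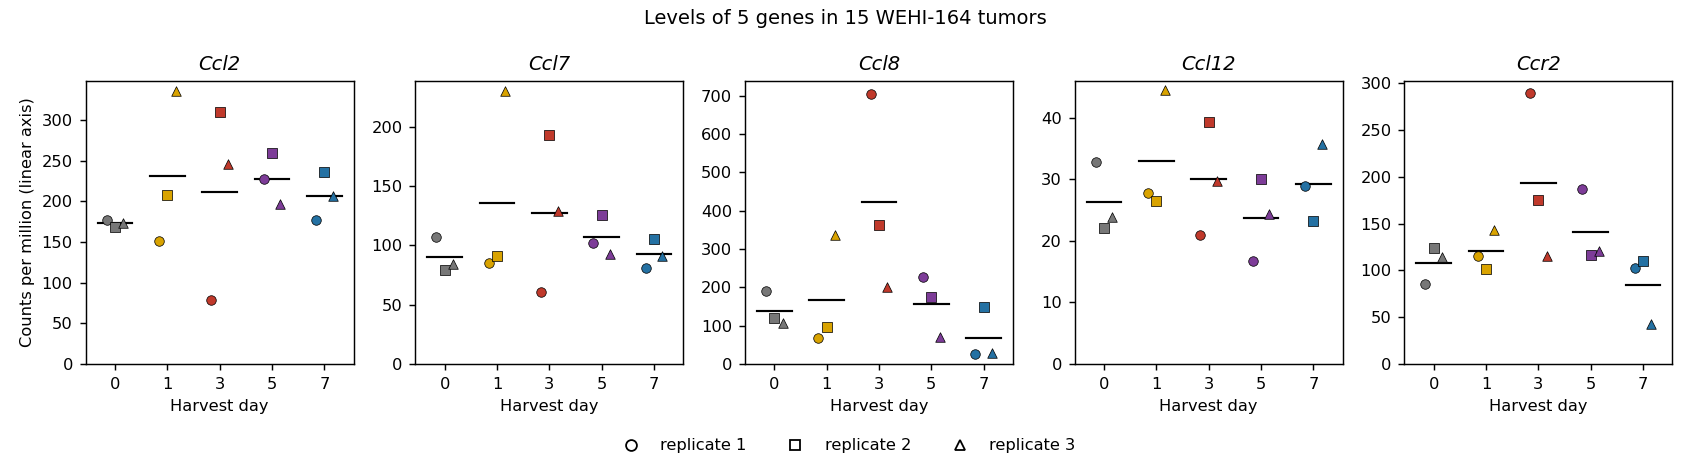
CPM of each gene (linear axis from 0) in each of the 3 tumors of a harvest day, with symbols for the replicate number and a line at the mean of the day. Ccl2, Ccl7 and Ccl12 had their highest tumor on day 1, while the highest tumor of Ccl8, at 705 CPM, and of Ccr2, at 289.8 CPM, was day 3 replicate 1, which was the lowest of the 15 for Ccl2 and Ccl7.

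The comparison of each treated day with day 0 asked whether the levels of monocyte chemokines and their receptor differed from those of untreated tumors. None of the 5 genes was called at an adjusted p under 0.05 by edgeR's quasi-likelihood test on any treated day, and the share of all genes called was 0% for each of days 1, 3, 5 and 7. At an unadjusted p under 0.05, 1 of the 5 genes was higher on day 3 (Ccr2), where 18.3% of all genes were, and none was on day 1, where 2.18% of all genes were. DESeq2 likewise called none of the 5 genes against day 0, while on day 3 it called 9.02% of all genes higher. Fitted fold changes were above 1 for 5 of the 5 genes on day 1 (median log2 fold change 0.32) and on day 3 (median 0.50), for 4 on day 5 (median 0.24) and for 3 on day 7 (median 0.03), beside medians over all genes between -0.02 and 0.00. In these bulk tumors, fewer cells of a type and less RNA per cell cannot be told apart.

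Ccl2, the classical monocyte attractant, was at 177, 169 and 174 CPM in the 3 tumors of day 0. It was at 151, 208 and 335 CPM on day 1 and at 78.5, 310.1 and 245 CPM on day 3. On both days the 3 tumors lay on either side of the day 0 range, which was narrow. On day 5 Ccl2 was at 227, 259 and 197 CPM and on day 7 at 177, 237 and 207 CPM. All 3 tumors of day 5 were above all 3 of day 0, and 1 of the 5 genes separated in this way on day 5, as 6.89% of all genes did. The day 0 mean of 173 ± 4.15 CPM and the day 5 mean of 228 ± 31.2 CPM (SD, n = 3) gave a log2 fold change of 0.39 (SE 0.39) with an adjusted p of 0.886 by edgeR. On day 1 the log2 fold change was 0.42 (SE 0.39), and without day 1 replicate 3, the highest tumor, it was 0.05. On day 3 it was 0.29 (SE 0.39), and 0.68 without day 3 replicate 1, the lowest tumor. The order of the day means was day 1, 5, 3, 7 and 0, with the ranges of each pair of neighbors overlapping.

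Ccl7, a second CCR2 agonist, was at 107, 79.3 and 84.2 CPM on day 0 and at 85.5, 91.5 and 230.1 CPM on day 1. It was at 61.0, 193 and 129 CPM on day 3, at 102, 125 and 93.1 CPM on day 5, and at 81.3, 105 and 90.7 CPM on day 7. A single tumor of day 1, a pair of tumors of day 3 and a single tumor of day 5 exceeded every day 0 tumor, and the days overlapped throughout. The day 0 mean of 90.2 ± 14.9 CPM and the day 1 mean of 136 ± 81.8 CPM (SD, n = 3) gave a log2 fold change of 0.59 (SE 0.40, adjusted p = 1.00 by edgeR). Leaving out day 1 replicate 3 turned this fold change to -0.03 on the log2 scale. On day 3 the log2 fold change was 0.50 (SE 0.40, adjusted p = 0.371 by edgeR), and without day 3 replicate 1, the lowest tumor, it was 0.84 (adjusted p = 0.380 by edgeR).

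Ccl8 had the widest range of the 5 genes. It was at 191, 119 and 108 CPM on day 0 and at 67.8, 96.4 and 337 CPM on day 1. On day 3 it was at 705, 362 and 202 CPM, so that all 3 tumors lay above the highest of day 0. Of the 5 genes, 1 separated upward from day 0 in this way on day 3, as 19.4% of all genes did, and 0 did on day 1, as 5.76% of all genes did. On day 5 it was at 226, 175 and 69.8 CPM and on day 7 at 27.2, 148 and 27.6 CPM. A pair of day 7 tumors thus held less Ccl8 than any other tumor, while the third lay within the day 0 range.

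On days 0, 1, 3, 5 and 7, in that order, Ccl8 averaged 139 ± 44.6, 167 ± 148, 423 ± 257, 157 ± 79.6 and 67.6 ± 69.6 CPM (SD, n = 3). The day 3 level was 3.03-fold that of day 0, a log2 fold change of 1.60 (SE 0.77) with an adjusted p of 0.180 by edgeR. Without day 3 replicate 1 the log2 fold change was 1.02 (adjusted p = 0.554 by edgeR). On day 7 the log2 fold change against day 0 was -1.04 (SE 0.77, adjusted p = 1.00 by edgeR). The value of 0.26 on day 1 turned to -0.76 without day 1 replicate 3. In the order of its day means, day 3, 1, 5, 0 and 7, each pair of neighbors overlapped.

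Ccl12 was the least variable of the 5 genes. It was at 32.8, 22.2 and 23.9 CPM on day 0, at 27.7, 26.4 and 44.6 CPM on day 1 and at 20.9, 39.3 and 29.7 CPM on day 3. It was at 16.7, 30.0 and 24.3 CPM on day 5 and at 28.9, 23.2 and 35.7 CPM on day 7. All days overlapped, and the log2 fold changes against day 0 were 0.32, 0.19, -0.15 and 0.15 on days 1, 3, 5 and 7 (SE 0.29 each, adjusted p from 0.640 to 1.00 by edgeR). The day 3 value of Ccl12 was 0.40 without day 3 replicate 1. Its lowest mean was 23.7 ± 6.67 CPM, for day 5, and its highest 32.9 ± 10.1 CPM, for day 1 (SD, n = 3).

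Ccr2, the receptor, was at 85.6, 124 and 115 CPM on day 0 and at 116, 102 and 144 CPM on day 1. On day 3 it was at 289.8, 175 and 115 CPM. The first and second of these exceeded every day 0 tumor and the third lay within the day 0 range. It was at 187, 116 and 120.4 CPM on day 5 and at 102, 109.6 and 42.3 CPM on day 7. All 3 tumors of day 7 lay below all 3 of day 5, which held for 1 of the 5 genes and for 3.54% of all genes.

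Ccr2 averaged 108 ± 20.1, 193 ± 88.9 and 84.7 ± 36.9 CPM on days 0, 3 and 7 (SD, n = 3). The log2 fold change against day 0 was 0.84 (SE 0.37) on day 3, with an unadjusted p of 0.0425 and an adjusted p of 0.158 by edgeR. Without day 3 replicate 1 it was 0.43 (adjusted p = 0.576 by edgeR), beside 0.38 on day 5. On day 7 it was -0.35 (SE 0.37). The order of the day means was day 3, 5, 1, 0 and 7, and each pair of neighbors overlapped.

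**Figure D2:**
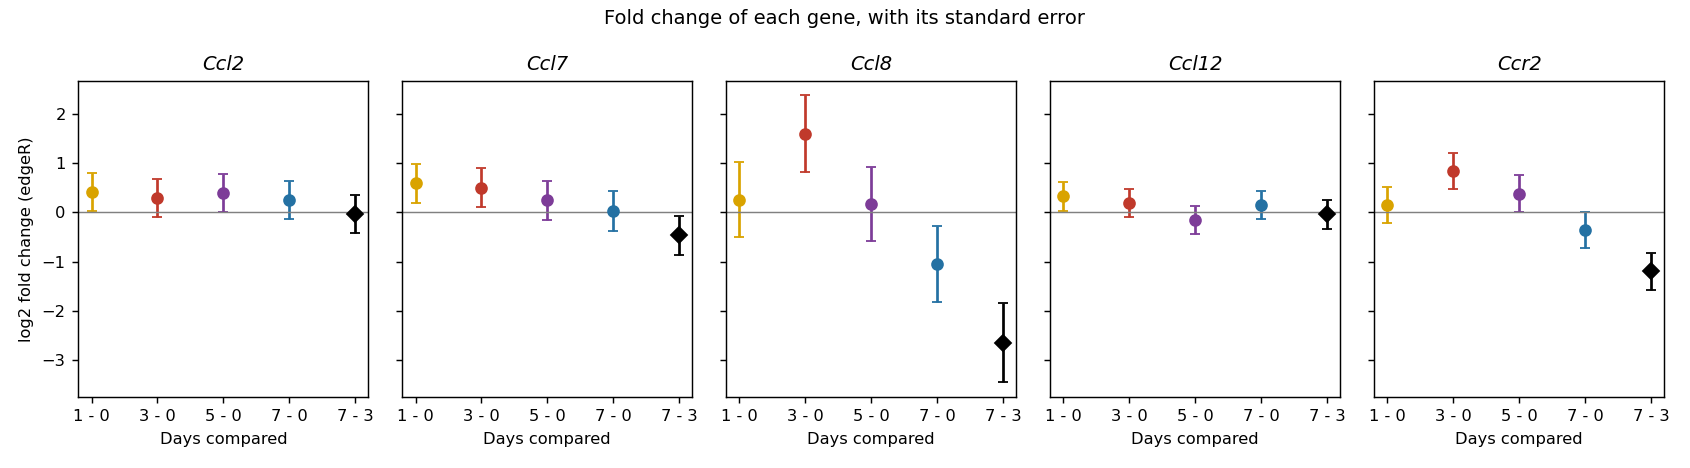
Log2 fold change of each gene by edgeR (vertical axis) for each treated day against day 0 and for day 7 against day 3, with bars of 1 standard error. The points of Ccl2, Ccl7 and Ccl12 lie between -0.47 and 0.59, whereas Ccl8 reaches 1.60 on day 3 and -2.65 between days 3 and 7, and Ccr2 reaches 0.84 and -1.19.

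The comparison of day 7 with day 3 set the end of the course against the day on which Ccl8 and Ccr2 had their highest means. All 3 tumors of day 7 lay below all 3 of day 3 for 2 of the 5 genes, Ccl8 and Ccr2, and for 18.4% of all genes. The log2 fold change was -2.65 (SE 0.80) for Ccl8 and -1.19 (SE 0.37) for Ccr2, each with an adjusted p of 0.0832 by edgeR, which called 0% of all genes. At an unadjusted p under 0.05, 2 of the 5 genes were lower, as were 22.6% of all genes. For Ccl2, Ccl7 and Ccl12 the log2 fold changes were -0.03 (SE 0.39), -0.47 (SE 0.40) and -0.04 (SE 0.29), and without day 3 replicate 1 they were -0.42, -0.80 and -0.23. Without that tumor Ccl8 had -2.05 and Ccr2 -0.77 by edgeR (adjusted p = 0.315 and 0.321).

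DESeq2 called both Ccl8 and Ccr2 lower on day 7 than on day 3, among 15.1% of all genes, with a log2 fold change of -2.68 (adjusted p = 0.0194) for Ccl8 and -1.21 (adjusted p = 0.0190) for Ccr2. These calls of DESeq2 held when replicate 2 or 3 of day 3 or replicate 2 of day 7 was left out, where DESeq2 called 33.2%, 34% and 26.8% of all genes in either direction. They were lost without day 3 replicate 1, with adjusted p of 0.175 for Ccl8 and 0.202 for Ccr2, and log2 fold changes of -2.06 and -0.77. They were also lost without day 7 replicate 1, with an adjusted p of 0.0984 for both, and without day 7 replicate 3, with adjusted p of 0.0760 and 0.0923. In these 3 cases DESeq2 called 0.581%, 0.0774% and 0.123% of all genes, so that the calls of Ccl8 and Ccr2 came and went with those of the genes at large. With edgeR, both genes passed the threshold when day 3 replicate 3 was left out (adjusted p = 0.0494 for each), among 13.5% of all genes.

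Markers of other cells differed between the same 2 days. At an unadjusted p under 0.05, 12 of 13 macrophage markers, 12 of 12 T and NK cell markers and 7 of 12 inflammatory monocyte markers were lower on day 7, beside 22.6% of all genes, and 1 inflammatory monocyte marker was higher. Lists outside the leukocytes were lower too, with 7 of 8 fibroblast and matrix, 6 of 6 endothelial, 6 of 7 skeletal muscle and 5 of 5 adipocyte markers. Of 5 erythroid markers, 5 were higher, beside 12.9% of all genes, with a summed level of 10.2 to 28.7 CPM in day 3 and 29.0 to 221 CPM in day 7 tumors. When day 3 replicate 1 was left out, 5 of 13 macrophage, 7 of 12 T and NK cell and 4 of 12 inflammatory monocyte markers were lower, beside 8.45% of all genes, as were 1 of 8 fibroblast and matrix, 0 of 6 endothelial, 0 of 7 skeletal muscle and 2 of 5 adipocyte markers. The 5 erythroid markers were higher without it as well, beside 7.25% of all genes. The part of these cells in the levels of Ccl8 and Ccr2 was not tested.

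Between days 1 and 3, days 3 and 5 and days 5 and 7, none of the 5 genes was called by edgeR, which called 0% of all genes, or by DESeq2. In the joint edgeR test of the 4 treated days, none of the 5 genes was called, as was the case for 0% of all genes. The adjusted p was 0.309 for Ccl8, 0.324 for Ccr2, and 0.690, 0.723 and 0.894 for Ccl7, Ccl12 and Ccl2. At an unadjusted p under 0.05, only Ccl8 of the 5 genes passed, by a narrow margin, beside 16.2% of all genes. Harvest day held 55.5% of the variance of log2 CPM of Ccl8 (exact permutation p = 0.0681 over 1401400 divisions of the tumors) and 47.5% of that of Ccr2 (exact permutation p = 0.0908). It held 20.7% for Ccl12, 13.3% for Ccl7 and 9.83% for Ccl2 (exact permutation p = 0.639, 0.841 and 0.913). Leaving out each tumor in turn moved the exact p of Ccl8 between 0.0121 and 0.181 and that of Ccr2 between 0.0233 and 0.251. The p of Ccl8 passed the threshold without day 1 replicate 3 (exact permutation p = 0.0319) or day 7 replicate 2 (0.0121), and that of Ccr2 without day 3 replicate 3 (0.0233).

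The chemokines were next compared with each other within each tumor, since a ratio of 2 genes does not depend on the library total. Among the 4 chemokines, per kilobase, Ccl8 made up 41.5% ± 5.43, 34.9% ± 9.56, 60.1% ± 23.3, 38.3% ± 12.5 and 20.6% ± 15.4 of the sum on days 0, 1, 3, 5 and 7, in that order (SD, n = 3). Ccl2 made up 33.5% ± 5.08, 36.5% ± 7.07, 22.1% ± 14.2, 37.7% ± 6.61 and 47.2% ± 7.54 on the same days. Ccl12 stayed the smallest share on each day by its mean, at 4.58% to 10.7%. In day 3 replicate 1, Ccl8 made up 86.7% and Ccl2 6.07%. In the other 2 tumors of that day Ccl8 made up 50.5% and 43.2%, within or just above its day 0 values of 36.8% to 47.5%.

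**Figure D3:**
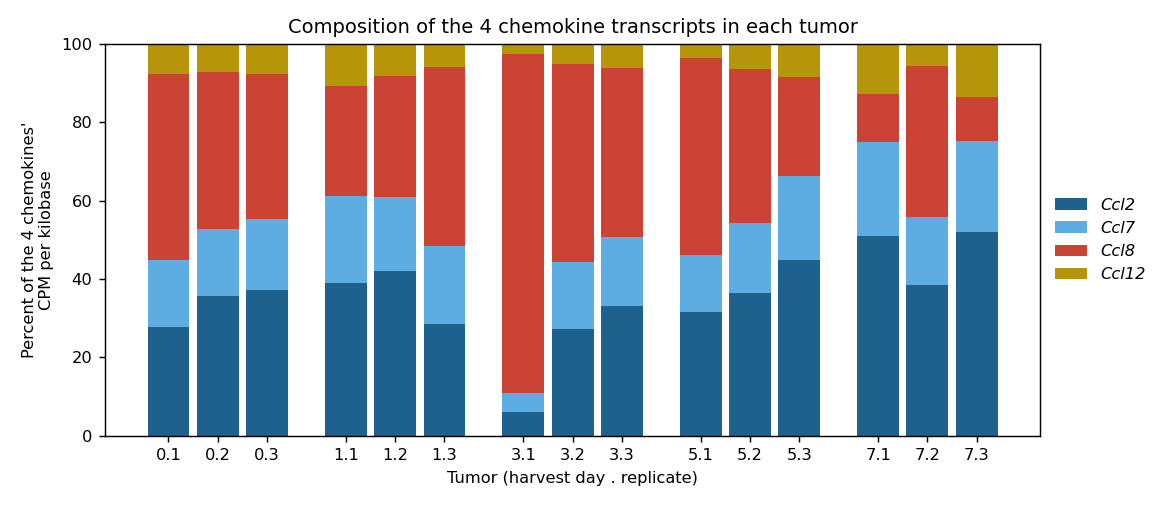
Share of each of the 4 chemokines in their summed CPM per kilobase (percent, stacked to 100) in each tumor, labeled by harvest day and replicate. Ccl8 took 86.7% in day 3 replicate 1 and 12.5% and 11.1% in day 7 replicates 1 and 3, the lowest of the 15 tumors.

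The CPM ratio of Ccl8 to Ccl2 was 1.08, 0.707 and 0.623 in the 3 tumors of day 0 and 0.450, 0.463 and 1.01 on day 1. It was 8.97, 1.17 and 0.822 on day 3, 0.996, 0.676 and 0.355 on day 5, and 0.154, 0.625 and 0.134 on day 7. The ratio was thus highest in day 3 replicate 1 and lowest in a pair of tumors of day 7, and the third tumor of day 7 lay just above the lowest of day 0. Harvest day held 54.9% of the variance of its log2 value, with an exact permutation p of 0.0285, or 0.114 when adjusted over the 4 ratios examined. The exact p ranged from 0.00681 to 0.129 when a tumor was left out, and was 0.0835 without day 3 replicate 1. In 8 of these 15 cases it lay above 0.05, between 0.0503 and 0.129, namely when replicate 2 or 3 of day 0, replicate 1 or 2 of day 1, replicate 1 of day 3, replicate 2 of day 5 or replicate 1 or 3 of day 7 was left out.

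For Ccl7 to Ccl2, the main agonists of CCR2, the mean log2 ratio was -0.95 ± 0.20, -0.85 ± 0.32, -0.66 ± 0.28, -1.09 ± 0.05 and -1.16 ± 0.04 over the 5 days in order (SD, n = 3). The 3 tumors of each of the last 2 days were close to each other, and harvest day held 51.2% of the variance (exact permutation p = 0.0886, adjusted over the 4 ratios 0.177, and 0.0382 before adjustment without day 1 replicate 2). For Ccl12 to Ccl2 it held 29.2% (exact permutation p = 0.458, adjusted 0.458).

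Over the 15 tumors, Ccl2 and Ccl7 had a Pearson r of 0.86 and a Spearman rho of 0.91 between their log2 CPM, the closest of the 10 pairs of the 5 genes. The permutation p, adjusted over the 10 pairs, was 0.0002 for r and 0.0001 for rho, the latter being the smallest that 100000 permutations can give. Without the 2 tumors farthest from the median of Ccl2 r was 0.87, without day 3 replicate 1 it was 0.91, and with the mean of each day subtracted it was 0.92. Over all genes tested, 69 had a higher r with Ccl2 than Ccl7 did. The second pair was Ccl8 and Ccr2, with r = 0.78 and rho = 0.67 (permutation p adjusted over the 10 pairs 0.0040 and 0.0390). Here r was 0.73 without the 2 tumors farthest from the median of Ccl8, 0.69 without day 3 replicate 1 and 0.59 with the day means subtracted, and 1992 genes had a higher r with Ccl8 than Ccr2 did.

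Ccl7 and Ccl12 had r = 0.70 (permutation p adjusted over the 10 pairs 0.0118) and rho = 0.62 (0.0526). This relation rests on the highest tumors, since r was 0.33 (adjusted permutation p = 0.447) without the 2 tumors farthest from the median of Ccl7. Ccl2 and Ccl8 had r = -0.01 and rho = 0.39 over all 15 tumors and r = 0.65 without day 3 replicate 1 (permutation p adjusted over the 10 pairs 0.958, 0.260 and 0.0221). Without the 2 tumors farthest from the median of Ccl2, which include that tumor, r was 0.58. Ccl7 and Ccl8 had r = 0.36 and rho = 0.46 with that tumor and r = 0.74 without it (adjusted permutation p = 0.320, 0.167 and 0.0174), but r was -0.0070 without the 2 tumors farthest from the median of Ccl7. The value thus depended on which tumors were included. In day 3 replicate 1, Ccl2 and Ccl7 were at their lowest of 15 and Ccl8 and Ccr2 at their highest. Ccr2 had r = -0.26 with Ccl2, 0.04 with Ccl7 and -0.38 with Ccl12 (rho = 0.08, 0.07 and -0.30), none past the threshold (adjusted permutation p from 0.320 to 0.958). Without day 3 replicate 1 these values of r were 0.35, 0.40 and -0.26, and without the 2 tumors farthest from the median 0.30, -0.35 and -0.44. Ccl2 and Ccl12 had r = 0.53 and rho = 0.54 (adjusted permutation p = 0.114 and 0.103), and r = 0.27 without the 2 farthest tumors. Ccl8 and Ccl12 had r = -0.05 and rho = 0.01 (adjusted permutation p = 0.958 and 0.975), and r = 0.19 without the 2 farthest tumors.

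**Figure D4:**
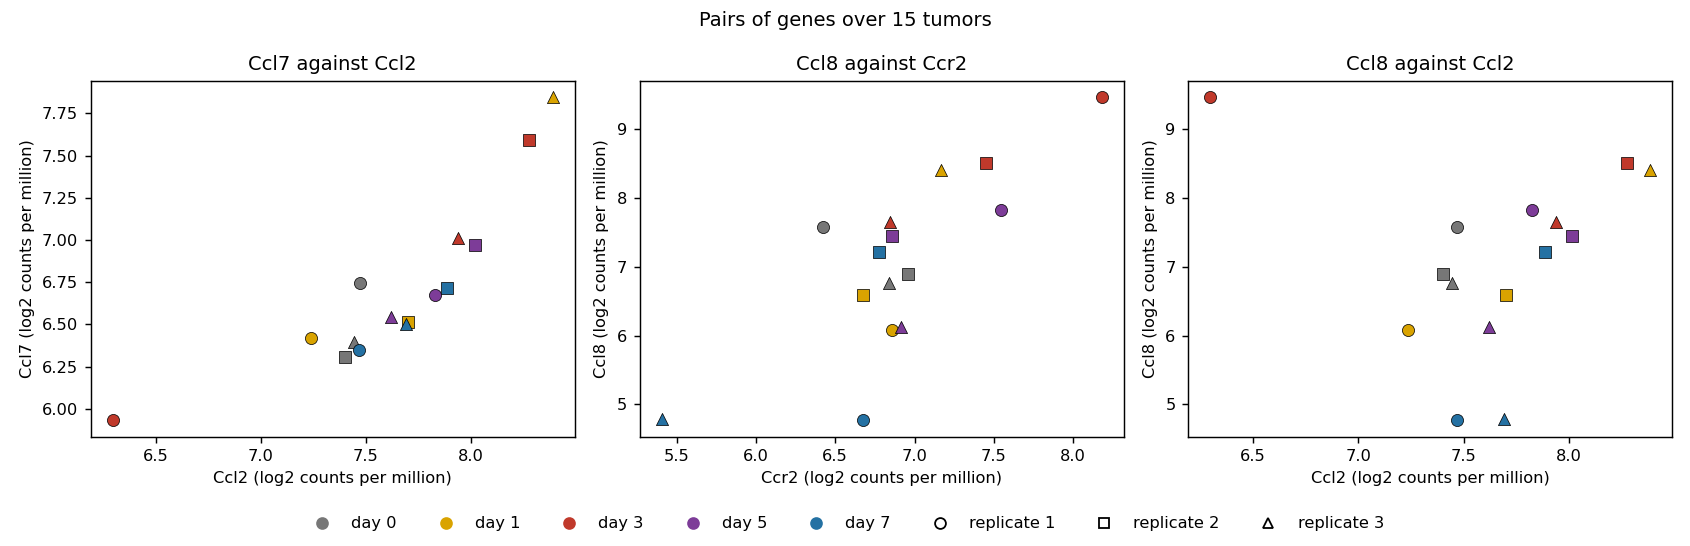
Log2 CPM of Ccl7 against Ccl2, of Ccl8 against Ccr2 and of Ccl8 against Ccl2 in the 15 tumors, with color for the harvest day and symbols for the replicate number. The first pair runs along a line (r = 0.86), the second is looser (r = 0.78), and in the third day 3 replicate 1 lies alone at the upper left (r = -0.01 with it and 0.65 without it).

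The genes whose log2 CPM was most like that of each of the 5 were then taken, the 5 with the highest Pearson r over the 15 tumors. For Ccl2 they were Ehd1 (r = 0.96), Sdc4 (0.96), Got2 (0.93), Psmd11 (0.93) and Pgs1 (0.93). Sdc4 encodes a cell surface heparan sulfate proteoglycan and Got2 a mitochondrial aminotransferase. For Ccl7 they were FAM188A (0.92), Prl2c3 (0.92), March5 (0.91), Eif1ad (0.91) and Pgrmc1 (0.91). For Ccl8 they were Tgm1 (0.97), Aup1 (0.96), Lag3 (0.96), Ms4a8a (0.96) and C3 (0.95). Lag3 encodes an inhibitory receptor of T cells and C3 the central complement component. For Ccl12 the likeness was lower, with Sco1 (0.83), Sh2d6 (0.79), Gch1 (0.77), Vnn1 (0.76) and Hspb8 (0.76). For Ccr2 they were Pilrb2 (0.97), I830077J02Rik (0.95), Meox2 (0.95), Moxd1 (0.94) and P2rx1 (0.94). The 5 lists shared no gene. Without day 3 replicate 1 the 5 values of Ccl8 were 0.94 to 0.97 and those of Ccr2 0.91 to 0.96, whereas those of Ccl2 were 0.82 to 0.92.

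Other genes of the chemokine system were taken as lists. Of 14 other CC chemokines tested, none was called by edgeR against day 0, and on day 3, 5 were higher and 1 lower at an unadjusted p under 0.05, beside 18.3% and 11.7% of all genes, with a median log2 fold change of 1.34. DESeq2 called 3 of them higher on day 3, beside 9.02% of all genes, and 0 without day 3 replicate 1. The lowest p values were those of Ccl5 and Ccl4, T cell and macrophage attractants. Ccl5 averaged 22.6 ± 2.80, 73.4 ± 65.0 and 126 ± 52.6 CPM on days 0, 1 and 3 (SD, n = 3), and its log2 fold change was 2.48 (SE 0.68, adjusted p = 0.115 by edgeR) on day 3. Ccl4 averaged 4.44 ± 0.650 CPM in untreated and 15.4 ± 0.980 CPM in day 3 tumors (SD, n = 3), with a log2 fold change of 1.79 (SE 0.57, adjusted p = 0.115 by edgeR). On day 1 the lowest p values were those of Ccl5, with a log2 fold change of 1.70 (SE 0.66), and Ccl25, with -0.42 (SE 0.23), both with an adjusted p of 1.00 by edgeR. On day 3 Ccl8, at 1.60, lay above the median of this list and Ccl2, Ccl7 and Ccl12 below it. Leaving out day 3 replicate 1, the median of the list was 0.53, with 4 members higher and 0 lower, and Ccl8 (1.02), Ccl7 (0.84) and Ccl2 (0.68) lay above it and Ccl12 (0.40) below.

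Of 13 other chemokine receptors tested, 4 were higher on day 3 at an unadjusted p under 0.05, beside 18.3% of all genes. None was called by edgeR and 1 was called higher by DESeq2, beside 9.02% of all genes. Without day 3 replicate 1 the number higher at the unadjusted threshold was 2, beside 6.53% of all genes, and DESeq2 called 0. Ccrl2 averaged 5.89 ± 0.539 CPM in untreated and 13.9 ± 1.76 CPM in day 3 tumors (SD, n = 3). Of 10 genes listed for the signaling of CCR2 or its regulation, not all of them particular to CCR2, 7 were higher on day 3 at an unadjusted p under 0.05, beside 18.3% of all genes. Without day 3 replicate 1 the number was 5, beside 6.53% of all genes. Of 5 pan-leukocyte markers, 5 were higher as well, and 3 without that tumor. DESeq2 called 5 of the 10 genes higher with that tumor, beside 9.02% of all genes, and 0 without it. None of the 10 was called by edgeR. Dock2, which drives Rac in leukocytes, had a log2 fold change of 1.55 (SE 0.42) and Arrb2, an arrestin, of 0.78 (SE 0.22), each with an adjusted p of 0.115 by edgeR. On day 1 the lowest p in this list were those of Gnai3 and Vav1, with log2 fold changes of -0.10 and 0.40.

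Lists of targets of 2 transcriptional responses to double-stranded RNA were set beside the chemokines. Of 17 interferon targets, 17 were higher at an unadjusted p under 0.05 on day 1 and 15 on day 3, with median log2 fold changes of 1.51 and 1.07, beside 2.18% and 18.3% of all genes. None was called by edgeR, while DESeq2 called 10 higher on day 1 and 11 on day 3, beside 0.239% and 9.02% of all genes. In the fit without day 3 replicate 1, 16 were higher on day 3 at the unadjusted threshold, beside 6.53% of all genes. DESeq2 called 6 higher without that tumor, where it called 43 of all 15494 genes higher. Oasl2 averaged 135 ± 19.5 CPM in untreated and 384 ± 208 CPM in day 1 tumors (SD, n = 3). Irf7 had a log2 fold change of 2.63 (SE 0.51, adjusted p = 0.115 by edgeR) on day 3. On day 1 the log2 fold changes of the 5 genes of the Ccr2 group lay between 0.16 and 0.59, all below the median of the interferon targets. On day 3 Ccl8, at 1.60, lay above that day's median of 1.07, and Ccl2, Ccl7, Ccl12 and Ccr2 lay below it. Without day 3 replicate 1 all 5 genes lay below the median, with Ccl8 at 1.02 and the median at 1.34. Of 12 NF-kB targets, 1 was higher at the same unadjusted threshold on day 1, beside 2.18% of all genes, namely Cxcl2, with a log2 fold change of 1.91 (SE 0.62). On day 3, 6 were higher, beside 18.3% of all genes, and 3 were without day 3 replicate 1, beside 6.53%. DESeq2 called 2 of them higher on day 3 and 0 without that tumor. The lowest p values on day 3 were those of Nfkbiz (log2 fold change 0.88, SE 0.25) and Tnfaip3 (0.88, SE 0.29), the latter an inhibitor of the pathway.

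Markers of monocytes, macrophages and lymphocytes were examined on the same days. Of 12 inflammatory monocyte markers, 6 were higher and 1 lower at an unadjusted p under 0.05 on day 3, with a summed level of 961 to 1114, 1457 to 1783 and 811 to 1101 CPM in the tumors of days 0, 3 and 7. Ly6c2, which encodes Ly6C, was at 11.4, 19.0 and 15.1 CPM on day 0, 22.4, 32.1 and 123 CPM on day 1 and 100.2, 92.7 and 38.0 CPM on day 3, a log2 fold change of 2.34 (SE 0.63, adjusted p = 0.115 by edgeR). It was above its day 0 range in each tumor of days 1 and 3, as were 5.76% and 19.4% of all genes on those days. Vcan, of the same list, went the other way, at 404, 356 and 338 CPM on day 0 and 163, 190 and 264 CPM on day 3. Of 13 macrophage markers, 11 were higher on day 3 at that threshold, with a summed level of 2433 to 2531, 4058 to 13220 and 1351 to 3592 CPM. Of 12 T and NK cell markers, 10 were higher on day 3, and their summed level was 88.2 to 129, 237 to 489.6 and 29.6 to 135 CPM on the same days. Of 5 pan-leukocyte markers, 5 were higher on day 3. None of these markers was called by edgeR, and 18.3% of all genes were higher on day 3 at the same unadjusted threshold. DESeq2 called 6 of the inflammatory monocyte, 11 of the macrophage, 7 of the T and NK cell and 5 of the pan-leukocyte markers higher on day 3, beside 9.02% of all genes. It called 1 inflammatory monocyte marker lower, beside 3.91% of all genes. DESeq2 called 0 of each list without day 3 replicate 1, and 6, 8, 3 and 3 were higher at the unadjusted threshold, beside 6.53% of all genes. Without that tumor, 1 inflammatory monocyte and 1 macrophage marker were lower at this threshold, beside 6.52% of all genes. Of 7 patrolling monocyte markers, 5 were higher on day 3 at that threshold, and 1 without day 3 replicate 1. Outside the leukocytes, 5 of 8 fibroblast and matrix and 3 of 6 endothelial markers were higher, beside 18.3% of all genes. For adipocyte, skeletal muscle and erythroid markers the numbers were 2 of 5, 1 of 7 and 0 of 5. Without day 3 replicate 1, 0 of each of the lists outside the leukocytes were higher. No marker of these lists was at 0 in all tumors. Whether the cells of any of these lists account for the levels of Ccl8 and Ccr2 on day 3 was not tested.

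Set against Ptprc, which encodes the pan-leukocyte antigen CD45, the CPM ratio of Ccr2 was 0.791, 0.697 and 0.729 in the tumors of day 0 and 0.411, 0.560 and 0.342 in those of day 3. All 3 tumors of day 3 lay below all 3 of day 0 in this ratio, although Ccr2 itself had its highest mean on that day. The ratio to Ptprc was lower on day 3 in this way for 83.2% of all genes tested, so that the separation is not particular to Ccr2. The day 1 tumors had 0.995, 0.737 and 0.520, those of day 5 0.541, 0.409 and 0.764, and those of day 7 0.805, 0.472 and 0.642. Over the 5 days the exact permutation p was 0.148 (adjusted over the 4 ratios 0.198), and harvest day held 46.8% of the variance.

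**Figure D5:**
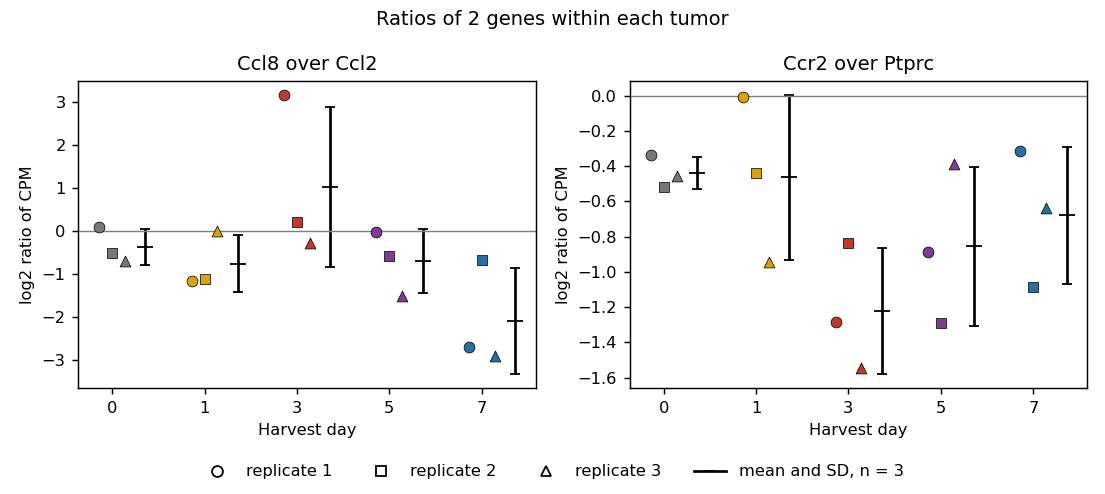
Log2 of the CPM ratio of Ccl8 to Ccl2 and of Ccr2 to Ptprc in each tumor by harvest day, with the mean and SD of each day beside its points (n = 3). The first ratio is highest in day 3 replicate 1 (3.17) and lowest in day 7 replicate 3 (-2.90), and the second is lowest in day 3 replicate 3 (-1.55).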

How the data were processed

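Poly(A) RNA of 15 tumors was sequenced as single-end reads. The authors checked the reads with FastQC, estimated transcript abundance with kallisto (reference GRCm38) and combined transcripts into genes by tximport, and deposited expected counts as whole numbers, 1 column per tumor. The transcript set and the strandedness were not given in the sources used here. Of 32544 entries 9156 had no count, and 1, a date in place of a name with at most 0.0268% of a tumor's counts, was left out. Genes with CPM above 0.366 in at least 3 tumors were tested with edgeR 4.0.16 (R 4.3.3), as a quasi-likelihood F test with TMM factors, harvest day as the only term and Benjamini-Hochberg adjustment over all genes tested. DESeq2 1.42.0, other scalings and filters, the replicate block and the omission of single tumors were alternatives. Tests were two-sided.

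Log2 CPM used a prior count of 2. The share of variance by day was tested over all divisions of the tumors, and correlations with 100000 permutations. The scripts were tested on simulated data. The tumors of a day are separate samples in the labels, which do not name the animals, so p-values measure the spread between samples. They give no batch. The spread between any 2 tumors of a day exceeded that of counting alone.

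The 5 genes, the lists and the tests were chosen with earlier results of these data known. The genes named were the 5, for each of them the 5 with the highest r, for each pathway list the 2 with the lowest edgeR p on day 1 and on day 3, and defining markers. Not all of these are printed for every day. Vcan was named besides, as a marker that was lower on day 3. 1 named gene is not reported here. The DESeq2 fits without single tumors, the list counts without day 3 replicate 1 and the omission of tumors in the permutation tests were chosen after seeing the data.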

Additional observations from a re-analysis of the deposited data

How the results depend on the processing

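Each harvest day had 3 tumors, so that a single tumor could set a mean and its direction. Over the 25 reported fold changes of the 5 genes, 582 of 605 alternatives kept the direction and 23, in 10 fold changes, turned it. The cause was not tested.

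The counts of the 5 genes called by edgeR were 0 in all comparisons with day 0 and in the joint test under each of the other scalings, filters and tumors left out. For day 7 against day 3 the count was 2 with DESeq2, which called 21% of all genes, and 2 with edgeR without day 3 replicate 3, which called 13.5%. DESeq2 without single tumors of those days gave 0 to 2, with 0.0774% to 34% of all genes called.

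Log2 fold changes against day 0 that turned when a tumor was left out were, on day 1, those of Ccl7 (-0.027 to 0.83) and Ccl8 (-0.76 to 0.64), on day 3 those of Ccl2 (-0.10 to 0.68) and Ccl12 (-0.053 to 0.40), on day 5 those of Ccl8 (-0.19 to 0.52) and Ccl12 (-0.36 to 0.047), and on day 7 those of Ccl7 (-0.070 to 0.18) and Ccl12 (-0.014 to 0.35). For day 7 against day 3 they were those of Ccl2 (-0.42 to 0.36) and Ccl12 (-0.23 to 0.22). With DESeq2 the turned values were 0.35, 0.083 and 0.068 for Ccl2 (leaving out replicate 2 or 3 of day 3 or replicate 1 of day 7) and 0.19 and 0.10 for Ccl12 (leaving out replicate 2 of day 3 or of day 7).

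With a tumor left out, harvest day held 47.0% to 72.2% of the variance of Ccl8, 41.3% to 60.0% of that of Ccr2, 43.3% to 67.1% of that of the ratio of Ccl7 to Ccl2 and 47.2% to 65.9% of that of the ratio of Ccl8 to Ccl2. Without day 3 replicate 1 the correlation turned to 0.65 for Ccl2 and Ccl8, 0.35 for Ccl2 and Ccr2 and 0.13 for Ccl8 and Ccl12.

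The replicate numbers did not pair the tumors. Of 30 pairs of tumors with the same number on different days, 9 had deviations from the day means that correlated above 0.1, with a median of -0.10. With the replicate block, edgeR called 0 of the 5 genes in every comparison, and the direction turned for Ccl7 on day 7 against day 0 (-0.0089) and for Ccl2 on day 7 against day 3 (0.063). With the block, day 7 against day 3 gave -2.69 for Ccl8 and -1.18 for Ccr2, each with an adjusted p of 0.135 by edgeR.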
